A study of Mus musculus with 6 samples.

Results

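The extracellular matrix and integrin genes described here are 42 mouse genes listed by name for their part in the matrix and in adhesion to it. They were found by gene identifier among the 54446 identifiers of the count table, and 41 of them were among the 14956 genes that were tested, those reaching 10 counts or more in 2 or more libraries. The missing member was Itga2, the collagen-binding integrin chain, which had at most 6.14 normalised counts in any library. The members were 14 collagen chains, 6 matrix glycoproteins, 4 laminin chains, 9 remodelling enzymes and their inhibitors, and 9 adhesion receptors, which were 8 integrin chains and the hyaluronan receptor Cd44.

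Poly(A) RNA was sequenced from TRAMP-C2 cells, a line grown from a prostate tumor of a male C57BL/6 mouse of the TRAMP strain, in which a probasin promoter drives a viral T antigen in prostate epithelium. Cells were left without drug (Ctrl) or received oxaliplatin (Oxali) or cisplatin (Cispl) at 2 µM for 24 h, with 2 libraries in each of the 3 groups. All groups shared the medium with serum, insulin and dehydroisoantrosterone, and all results come from this line alone. The labels do not say whether replicates were separate cultures, so p-values measure only the spread between these libraries, which may be technical. The chi-square of replicate counts averaged 2.86 to 4.73 per gene, more than counting alone would give. Library totals were 21345312 to 24041767 counts, at which 3 counts, the most that a count of 0 allows, equal 0.125 to 0.141 CPM (counts scaled to a library total of 1000000), a limit that covers counting error only. The epithelial markers Epcam, Krt5 and Cldn4 stayed under 10 normalised counts in every library, while all 10 mesenchymal markers were found. The summed length-scaled level of the epithelial list was 191 to 223 per library and that of the mesenchymal list 5039 to 5315 (counts per kilobase of exon, scaled to a sum of 1000000). Of 6 immune and 4 endothelial markers, 5 and 3 were under 10 normalised counts everywhere. The mitochondrial gene mt-Co3 had 2.05 normalised counts in Cispl replicate 2 against 752 to 1460 elsewhere. Member calls against Ctrl or between the drugs that were lost when a single library was left out are named below. Members that passed only when a library was left out are named in part. Calls of genes outside the members were not examined in this way. Gene positions are those of GRCm38.

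The extracellular matrix is the protein scaffold that cells secrete and hold on to. Fibrillar collagens are wound from several chains, are cross-linked outside the cell by lysyl oxidases, and are trimmed by matrix metalloproteinases, which TIMP proteins inhibit. Basement membranes contain network-forming type IV collagen and laminins, and cells bind these fibers and sheets through integrins, heterodimers of an alpha and a beta chain, and through CD44. Oxali and Cispl are platinum compounds that form adducts with DNA. They differ in structure in that Cispl carries ammine and chloride ligands on platinum, and Oxali a diaminocyclohexane carrier and an oxalate ligand.

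Matrix genes were among the most abundant transcripts of these cells. In Ctrl cells Col1a1 stood at 2400 ± 129 on the length-scaled level (SD, n = 2), the 51st position among all genes, and the collagen-binding glycoprotein gene Sparc at 2053 ± 21.6. Fn1 (1137 ± 72.4) and Col1a2 (1103 ± 15.8) came next and did not differ beyond their spread, followed by Lox at 978 ± 21.8 and Col6a1 at 873 ± 0.361. The lowest tested members in Ctrl were Itga6 at 6.25 ± 0.522 and Col12a1 at 12.5 ± 1.45. Together the 42 members took 3.65% and 3.64% of all counts in the Ctrl libraries, 3.31% and 3.24% in the Oxali libraries, and 3.0% and 3.05% in the Cispl libraries. The 3 groups did not overlap in this share. The share of the collagens was 1.89% and 1.82% in Ctrl, 1.57% and 1.55% with Oxali and 1.43% and 1.44% with Cispl. By contrast, the adhesion receptors took 0.223% and 0.229% in Ctrl and 0.238% to 0.246% in the treated libraries. In bulk libraries such as these, fewer cells making a transcript and less of it per cell cannot be told apart.

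**Figure D1:**
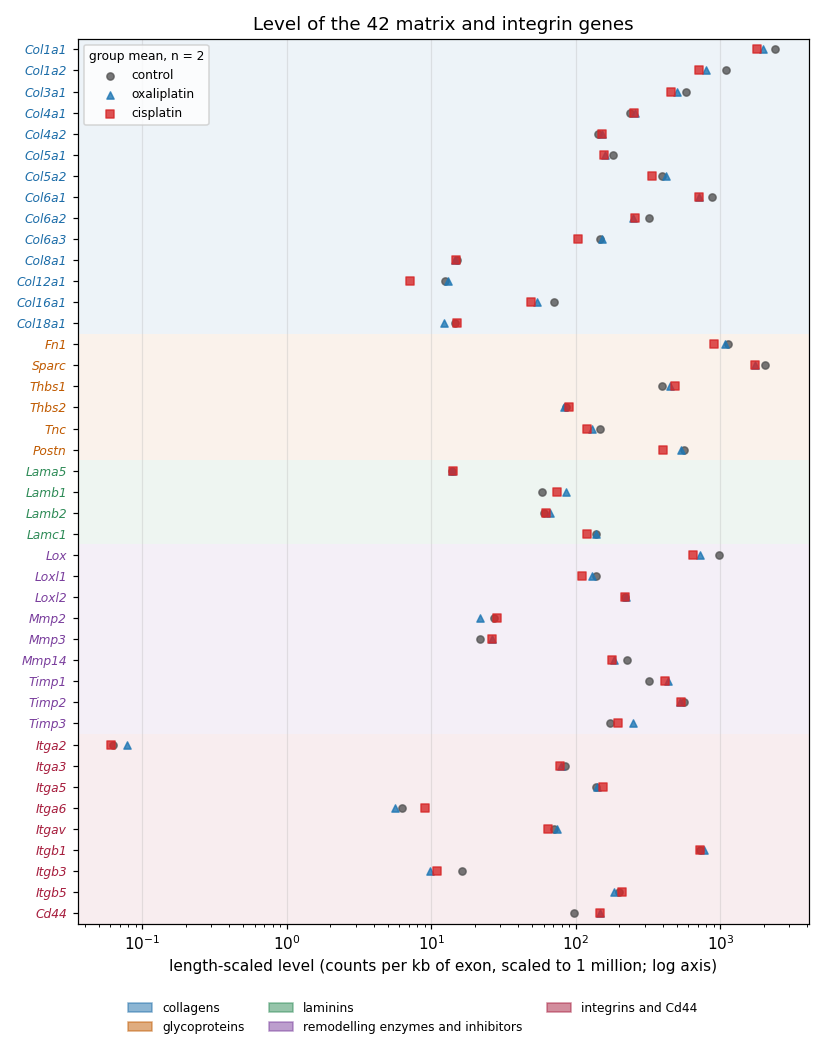
Length-scaled level (counts per kilobase of exon, scaled to a sum of 1000000, log axis) of the 42 members, as the mean of 2 libraries in Ctrl (circles), Oxali (triangles) and Cispl (squares), with background colors for the role of each gene. Col1a1 and Sparc lie highest at 2400 and 2053 in Ctrl, and Itga2 lies far below all others at 0.0605 to 0.0787.

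The first question was which of these genes responded to each drug at the low dose. With Oxali, 21 of 41 tested members passed a DESeq2 adjusted p of 0.05 against Ctrl, where 20.2% of all tested genes did. Of these 7 were higher and 14 lower, beside 10.7% and 9.5% of all genes. With Cispl, 29 members passed, against 28.1% of all genes. Here 11 were higher and 18 lower, beside 15.7% and 12.4%. Abundant genes are called more often. Among genes with a mean of at least 1000 normalised counts 39.9% were called with Oxali and 49.3% with Cispl, compared with 19 and 27 of the 35 members at that level. By direction, 1155 of these 4959 genes were higher and 825 lower with Oxali, beside 7 and 12 of the 35 members. With Cispl 1636 were higher and 810 lower, beside 10 and 17 members. At this level the members' share was not above that of all genes for rises, but was above it for falls. Both drug contrasts share the same Ctrl libraries, so their calls are given side by side and not counted as independent of each other.

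The changes were moderate in size. The members' median log2 fold change was -0.06 with Oxali and -0.03 with Cispl, beside a median of 0 over all tested genes, and the absolute log2 fold change had a median of 0.15 and 0.25 over the members, beside 0.18 and 0.22 over all tested genes and 0.13 and 0.16 over genes with a mean of at least 1000 normalised counts. Only 4 members with Oxali and 5 with Cispl were called with a log2 change of at least 0.5, among them Cd44, which rose with both drugs. By role, 7 collagens fell and 2 rose with Oxali, and 10 fell and 2 rose with Cispl. Of the glycoproteins, 2 fell with Oxali, and 4 fell and 2 rose with Cispl. A single laminin chain, Lamb1, rose with each drug. Among the remodelling genes 2 rose and 4 fell with Oxali and 2 rose and 3 fell with Cispl, and among the adhesion receptors 2 rose and 1 fell with Oxali and 4 rose and 1 fell with Cispl.

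**Figure D2:**
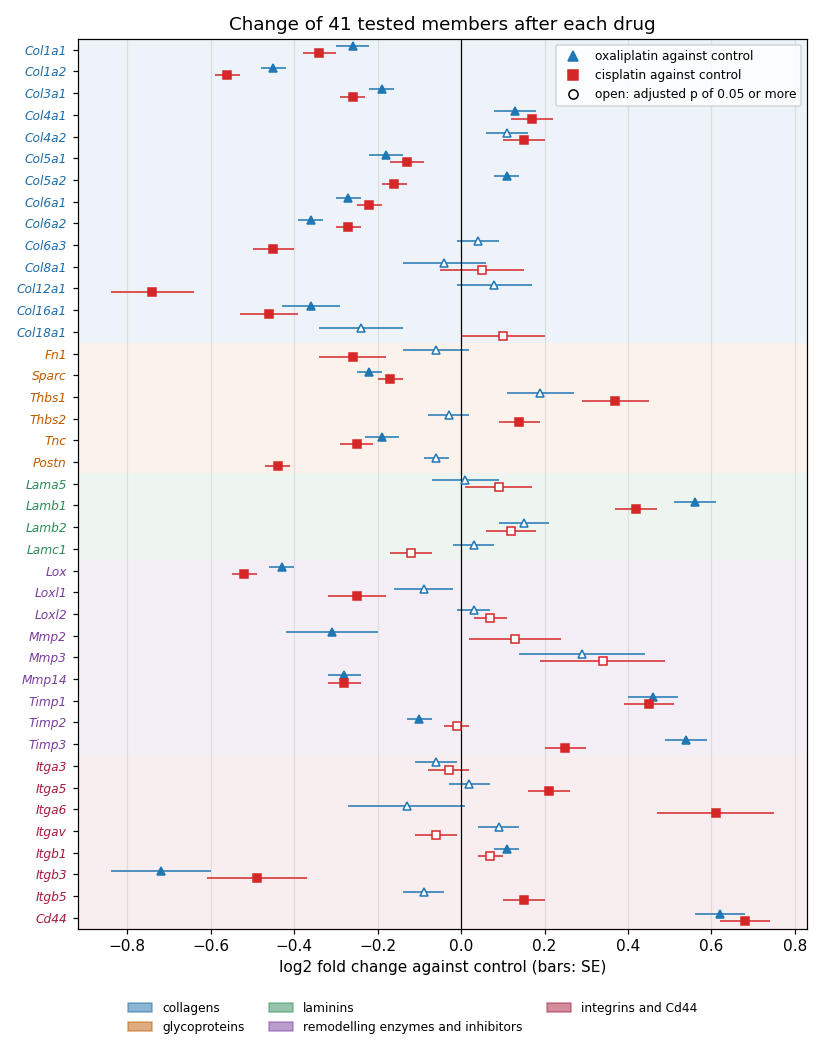
Log2 fold change against Ctrl of the 41 tested members with Oxali (triangles) and Cispl (squares), with SE bars from DESeq2 and open symbols for an adjusted p of 0.05 or more. Most collagens lie left of 0 with both drugs, Cd44 lies at 0.62 and 0.68, and Col12a1 lies at 0.08 with Oxali and -0.74 with Cispl.

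To show the sequence in front of members that moved most, the 250 bases before the RefSeq start site are printed for the called members with the largest Cispl change in each direction among those with an entry in the promoter table (GRCm38.p6). Of the 42 members 30 had an entry. Col1a1, Col5a2, Col12a1, Fn1, Thbs1, Lamc1, Lox, Loxl1, Loxl2, Mmp2, Itga6 and Itgb3 did not match. Cd44, Timp1 and Lamb1 were higher and Col1a2, Col16a1 and Col6a3 lower with Cispl. The windows lie at chr2:102901666-102901915 (minus strand), chrX:20869916-20870165 (plus strand), chr12:31265043-31265292 (plus strand), chr6:4505368-4505617 (plus strand), chr4:130047590-130047839 (plus strand) and chr1:90843972-90844221 (minus strand), and are written 5′ to 3′ in the direction of the gene. The RefSeq start of Col1a2 lies 804 bases from the GENCODE start of the gene. Capitals mark any match, on either strand, to TGANTCA (AP-1), GGAATG (TEAD), GGG and CC with 5 free bases between (NF-kB) or CAGAC (SMAD).
Cd44: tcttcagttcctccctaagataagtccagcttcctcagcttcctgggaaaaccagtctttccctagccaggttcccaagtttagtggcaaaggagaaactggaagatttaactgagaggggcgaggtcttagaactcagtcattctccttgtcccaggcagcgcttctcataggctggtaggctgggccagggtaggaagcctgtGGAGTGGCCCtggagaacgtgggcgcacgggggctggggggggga
Timp1: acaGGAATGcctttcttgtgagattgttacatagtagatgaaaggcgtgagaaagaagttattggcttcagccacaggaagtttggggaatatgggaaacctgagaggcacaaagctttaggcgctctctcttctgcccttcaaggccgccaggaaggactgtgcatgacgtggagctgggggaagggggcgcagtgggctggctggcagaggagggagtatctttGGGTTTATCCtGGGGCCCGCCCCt
Lamb1: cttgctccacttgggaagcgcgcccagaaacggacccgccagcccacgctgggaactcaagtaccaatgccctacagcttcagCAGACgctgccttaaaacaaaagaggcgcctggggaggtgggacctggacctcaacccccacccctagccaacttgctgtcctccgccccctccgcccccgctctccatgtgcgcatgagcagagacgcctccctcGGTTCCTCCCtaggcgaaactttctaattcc
Col1a2: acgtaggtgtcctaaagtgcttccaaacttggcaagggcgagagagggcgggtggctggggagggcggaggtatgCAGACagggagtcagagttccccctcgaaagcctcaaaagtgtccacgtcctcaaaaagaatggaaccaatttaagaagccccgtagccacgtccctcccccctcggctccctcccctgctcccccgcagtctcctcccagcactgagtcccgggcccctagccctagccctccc
Col16a1: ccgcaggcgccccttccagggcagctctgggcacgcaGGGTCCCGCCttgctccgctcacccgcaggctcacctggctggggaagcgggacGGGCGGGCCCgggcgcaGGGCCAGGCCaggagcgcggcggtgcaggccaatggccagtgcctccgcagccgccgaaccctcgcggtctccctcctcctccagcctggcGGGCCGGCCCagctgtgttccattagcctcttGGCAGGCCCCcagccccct
Col6a3: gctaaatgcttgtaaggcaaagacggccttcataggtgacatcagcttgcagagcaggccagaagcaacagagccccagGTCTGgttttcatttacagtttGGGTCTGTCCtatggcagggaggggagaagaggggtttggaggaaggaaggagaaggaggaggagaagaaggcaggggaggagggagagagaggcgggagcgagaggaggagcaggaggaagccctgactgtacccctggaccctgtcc
Col16a1 held 5 NF-kB matches, Timp1 4 of them, 3 of which share bases near the start, and a TEAD match. Cd44 and Lamb1 each held 1 NF-kB match, and in Col6a3 the NF-kB match shares bases with 1 of its 2 SMAD matches. Col1a2 held a single SMAD match, at -175 relative to the start. In no printed window was an AP-1 match present. Over the 30 members with a window, AP-1 letters were present in 2 and in 6.87% of 27025 promoter windows of the same length, 1 per gene symbol. TEAD letters were present in 3 members and 12.6% of all windows, NF-kB letters in 22 members and 45.4%, and SMAD letters in 15 members and 42.1%. These are matches of letters only, and binding was not measured. The fixed letters of the NF-kB pattern are all G or C. The printed windows had 54.4% to 75.6% G and C, and this share was not compared with that of all windows. The shares were also not drawn alike. Members used the window nearest the GENCODE start, while all genes used the first listed window of each symbol.

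Transcripts of type I and type III collagen fell with both drugs. Col1a1 and Col1a2 encode the chains of type I collagen, the main fibrillar collagen. Col1a1 (ENSMUSG00000001506, chromosome 11, 94936224 to 94953042) had 129470 and 117890 normalised counts in Ctrl, 103390 and 102600 with Oxali, and 95929 and 99662 with Cispl. Its log2 fold change was -0.26 ± 0.04 (SE) with Oxali (DESeq2 adjusted p = 7.03e-08) and -0.34 ± 0.04 with Cispl (DESeq2 adjusted p = 1.04e-12). Both Ctrl libraries lay above all 4 treated libraries. Col1a2 (ENSMUSG00000029661, chromosome 6, 4504814 to 4541544) had 109590 and 105530 normalised counts in Ctrl, 79112 and 78712 with Oxali, and 72977 and 73034 with Cispl. The groups did not overlap, and the log2 fold change was -0.45 ± 0.03 with Oxali (DESeq2 adjusted p = 5.36e-50) and -0.56 ± 0.03 with Cispl (DESeq2 adjusted p = 1.09e-78). Since Col1a2 fell more than Col1a1, the count ratio of Col1a1 to Col1a2 went from 1.18 and 1.12 in Ctrl to 1.3 to 1.36 in the 4 treated libraries. Col3a1, the type III fibril chain, fell to 0.878 of its Ctrl level with Oxali and 0.836 with Cispl. Col16a1, the gene of a fibril-associated collagen, fell to 0.78 and 0.729.

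Chains of the same collagen did not always move together. Type VI collagen forms beaded filaments near the cell surface from chains of Col6a1, Col6a2 and Col6a3. Col6a1 and Col6a2 fell with both drugs, by log2 fold changes of -0.27 ± 0.03 and -0.36 ± 0.03 with Oxali and -0.22 ± 0.03 and -0.27 ± 0.03 with Cispl (SE, DESeq2 adjusted p at most 4.44e-10). Col6a3 had 13637 and 14242 normalised counts in Ctrl, 14632 and 13944 with Oxali, and 9762 and 10687 with Cispl. The Oxali libraries overlapped Ctrl (log2 fold change 0.04 ± 0.05, DESeq2 adjusted p = 0.689), whereas Cispl libraries lay below (-0.45 ± 0.05, DESeq2 adjusted p = 2.83e-16). The count ratio of Col6a3 to Col6a1 was 0.451 and 0.479 in Ctrl, 0.594 and 0.555 with Oxali and 0.373 and 0.423 with Cispl. Type V collagen, which nucleates type I fibrils, also had different values for its chains. Col5a1 fell with both drugs (log2 fold change -0.18 with Oxali and -0.13 with Cispl), while Col5a2 rose by 0.11 with Oxali and fell by 0.16 with Cispl on the log2 scale, with SE of 0.03. Without Oxali replicate 1 or 2 the Oxali rise of Col5a2 missed the threshold (DESeq2 adjusted p = 0.118 and 0.12), as did the Cispl fall of Col5a1 without Ctrl replicate 1 or Cispl replicate 1 (DESeq2 adjusted p = 0.0941 and 0.151).

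Col12a1 (ENSMUSG00000032332, chromosome 9, 79598991 to 79718831), which encodes a collagen that decorates fibrils, showed the largest Cispl fall among the members. It had 1387 and 1607 normalised counts in Ctrl, 1614 and 1562 with Oxali, and 872 and 921 with Cispl. The Oxali libraries lay within or close to the Ctrl range, and both Cispl libraries lay below all others. The log2 fold change was 0.08 ± 0.09 with Oxali (DESeq2 adjusted p = 0.581) and -0.74 ± 0.10 with Cispl (DESeq2 adjusted p = 4.33e-13).

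Col4a1 and Col4a2, 2 of the type IV network chains of the basement membrane, had higher values in the treated libraries. They are neighbors on chromosome 8 on opposite strands, with RefSeq start sites 21 bases apart. Their count ratio stayed between 1.88 and 1.93 in all 6 libraries. Col4a1 rose by a log2 fold change of 0.13 ± 0.05 with Oxali (DESeq2 adjusted p = 0.0218) and 0.17 ± 0.05 with Cispl (DESeq2 adjusted p = 0.0016), and Col4a2 rose by 0.15 ± 0.05 with Cispl (DESeq2 adjusted p = 0.00375) and had 0.11 ± 0.05 with Oxali (DESeq2 adjusted p = 0.0501). The Cispl rise of both was lost without Cispl replicate 2 (DESeq2 adjusted p = 0.109 and 0.145), that of Col4a2 also without Ctrl replicate 2 (DESeq2 adjusted p = 0.0861), and the Oxali rise of Col4a1 without Oxali replicate 1 (log2 fold change 0.08, DESeq2 adjusted p = 0.446) or Ctrl replicate 2 (DESeq2 adjusted p = 0.172). The exons of both genes overlap, and whether counting used strand was not given in the sources used here. Col8a1, a short-chain collagen, and Col18a1, the source of endostatin, did not pass the test against Ctrl with either drug (log2 fold changes of -0.04 and -0.24 with Oxali and 0.05 and 0.10 with Cispl). The Oxali value of Col18a1 passed with edgeR (adjusted p = 0.0126) and with total count scaling (DESeq2 adjusted p = 0.0434).

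Among the glycoproteins, Sparc stood highest on the length-scaled level, and Fn1 had more counts. Sparc had 61142 and 60978 normalised counts in Ctrl, 52645 and 52076 with Oxali, and 54846 and 54073 with Cispl, so that every treated library was below Ctrl (log2 fold change -0.22 ± 0.03 and -0.17 ± 0.03, DESeq2 adjusted p = 1.43e-15 and 5.16e-09). Tnc, the anti-adhesive glycoprotein tenascin C, fell by 0.19 and 0.25 on the log2 scale with Oxali and Cispl. Its Oxali fall missed the threshold without Oxali replicate 2 (DESeq2 adjusted p = 0.0551). Postn, which encodes the matricellular protein periostin, had 38322 and 38910 normalised counts in Ctrl, 36132 and 37847 with Oxali, and 28718 and 28327 with Cispl. Only the Cispl fall passed the test (log2 fold change -0.44 ± 0.03, DESeq2 adjusted p = 7.1e-36), with -0.06 ± 0.03 for Oxali (DESeq2 adjusted p = 0.177). Fn1, the gene of fibronectin, which many integrins bind, had 100440 and 108000 normalised counts in Ctrl, 103670 and 95684 with Oxali, and 83948 and 90224 with Cispl. Its log2 fold change was -0.06 ± 0.08 with Oxali (DESeq2 adjusted p = 0.613) and -0.26 ± 0.08 with Cispl (DESeq2 adjusted p = 0.00362), and the latter was lost without Ctrl replicate 2 or Cispl replicate 1 (DESeq2 adjusted p = 0.111 and 0.114). The thrombospondins, which bind matrix and cell surface receptors, were higher with Cispl. Thbs1 had 18561 and 19034 normalised counts in Ctrl, 22622 and 20324 with Oxali and 23216 and 25375 with Cispl, a log2 fold change of 0.37 ± 0.08 with Cispl (DESeq2 adjusted p = 6.75e-05) and 0.19 ± 0.08 with Oxali (DESeq2 adjusted p = 0.0725). The Oxali value of Thbs1 passed under 6 alternatives, with an adjusted p of 0.000323 without Oxali replicate 2, 0.00197 and 0.00214 without Cispl replicate 1 or 2, 0.00127 with only the 4 libraries compared, 0.00469 with no filter on low counts (all DESeq2) and 0.0261 with edgeR. Thbs2 rose by 0.14 on the log2 scale with Cispl (DESeq2 adjusted p = 0.0105), a call that each omission of a library ended (DESeq2 adjusted p = 0.0684 to 0.229).

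Of the laminin chains, which form the sheets of the basement membrane, Lamc1 had the highest level. It had 8511 and 9299 normalised counts in Ctrl, 9300 and 8897 with Oxali, and 8022 and 8396 with Cispl, and passed against Ctrl with neither drug (DESeq2 adjusted p = 0.746 and 0.0794). Without Ctrl replicate 1, however, its log2 fold change with Cispl was -0.18 (DESeq2 adjusted p = 0.00919), and total count scaling also placed it past the threshold (DESeq2 adjusted p = 0.00938). Lamb1 (ENSMUSG00000002900, chromosome 12, 31265234 to 31329644), a beta chain, had 4536 and 4557 normalised counts in Ctrl, 6928 and 6460 with Oxali, and 6004 and 6146 with Cispl. All treated libraries lay above Ctrl, and the log2 fold change was 0.56 ± 0.05 with Oxali (DESeq2 adjusted p = 1.84e-26) and 0.42 ± 0.05 with Cispl (DESeq2 adjusted p = 5.19e-15). The count ratio of Lamb1 to Lamc1 was 0.533 and 0.49 in Ctrl and 0.726 to 0.748 in treated libraries. Lama5 and Lamb2 did not pass the test, with log2 fold changes of 0.01 and 0.15 for Oxali and 0.09 and 0.12 for Cispl. The Oxali value of Lamb2 passed with edgeR (adjusted p = 0.0268).

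Lox, the lysyl oxidase that starts cross-linking of collagen and elastin, fell with both drugs. It had 36409 and 36918 normalised counts in Ctrl, 27113 and 27401 with Oxali, and 25733 and 25545 with Cispl. All 4 treated libraries lay below Ctrl, with log2 fold changes of -0.43 ± 0.03 with Oxali (DESeq2 adjusted p = 3.28e-49) and -0.52 ± 0.03 with Cispl (DESeq2 adjusted p = 8.78e-72). Its relative Loxl1 fell only with Cispl past the threshold (log2 fold change -0.25 ± 0.07, DESeq2 adjusted p = 0.00123, and 0.0978 without Ctrl replicate 1), and Loxl2 passed with neither drug (0.03 and 0.07).

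Mmp14 fell while the inhibitors Timp1 and Timp3 rose with both drugs. Mmp14, the membrane-bound metalloproteinase that cleaves fibrillar collagen, fell by 0.28 on the log2 scale with each drug (SE 0.04, DESeq2 adjusted p = 3.61e-13 with Oxali and 8.67e-13 with Cispl). Timp1, an inhibitor of metalloproteinases, rose from 2222 and 2226 normalised counts in Ctrl to 3070 and 3042 with Oxali and 3041 and 3051 with Cispl, a log2 fold change of 0.46 ± 0.06 and 0.45 ± 0.06 (DESeq2 adjusted p = 1.17e-14 and 1.65e-14). The count ratio of Timp1 to Mmp14 was 0.212 and 0.208 in Ctrl and 0.346 to 0.351 in the treated libraries, which is a ratio of counts and not of protein. Timp3 (ENSMUSG00000020044, chromosome 10, 86300372 to 86349506), an inhibitor bound to the matrix, had 10894 and 11256 normalised counts in Ctrl, 16543 and 15623 with Oxali, and 12773 and 13480 with Cispl. The 3 groups were separate, with log2 fold changes of 0.54 ± 0.05 for Oxali (DESeq2 adjusted p = 5.2e-30) and 0.25 ± 0.05 for Cispl (DESeq2 adjusted p = 1.06e-06). Timp3 lies within Syn3 on the opposite strand, and Syn3 had a mean of 9.657 counts. Timp2, a further inhibitor, fell by 0.10 on the log2 scale with Oxali (DESeq2 adjusted p = 0.0105), a call that was lost without any of the 6 libraries (DESeq2 adjusted p = 0.0703 to 0.297). Mmp2, a gelatinase, had 690 and 755 normalised counts in Ctrl, 594 and 569 with Oxali and 780 and 799 with Cispl. Its Oxali fall (log2 fold change -0.31 ± 0.11, DESeq2 adjusted p = 0.0205) was lost without any of the 6 libraries (DESeq2 adjusted p = 0.0671 to 0.32). Mmp3, stromelysin, did not pass (0.29 ± 0.15 with Oxali and 0.34 ± 0.15 with Cispl, DESeq2 adjusted p = 0.155 and 0.0657). With edgeR both values of Mmp3 passed (adjusted p = 0.0234 and 0.00863).

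The receptors changed most in Cd44, Itgb3 and Itga6. Cd44 (ENSMUSG00000005087, chromosome 2, 102811141 to 102901665) had 4910 and 5390 normalised counts in Ctrl, 8128 and 7741 with Oxali, and 7909 and 8619 with Cispl. It rose to 1.54 times its Ctrl level with Oxali and 1.6 times with Cispl (log2 fold change 0.62 ± 0.06 and 0.68 ± 0.06, DESeq2 adjusted p = 6.2e-22 and 2.28e-26), with all treated libraries above Ctrl. Itgb3 (ENSMUSG00000020689, chromosome 11, 104608000 to 104670476), the beta chain that pairs with Itgav to bind vitronectin and fibronectin, had 780 and 725 normalised counts in Ctrl, 460 and 451 with Oxali, and 524 and 549 with Cispl. It fell in all treated libraries, by log2 fold changes of -0.72 ± 0.12 (DESeq2 adjusted p = 1.39e-08) and -0.49 ± 0.12 (DESeq2 adjusted p = 0.000184). Itga6 (ENSMUSG00000027111, chromosome 2, 71745616 to 71858416), a laminin receptor chain, had 420 and 465 normalised counts in Ctrl, 421 and 386 with Oxali, and 631 and 720 with Cispl. The Oxali libraries overlapped Ctrl (log2 fold change -0.13 ± 0.14, DESeq2 adjusted p = 0.548), and the Cispl libraries lay above (0.61 ± 0.14, DESeq2 adjusted p = 5.79e-05). Without Cispl replicate 2 the Cispl rise of Itga6 was 0.51 on the log2 scale and just missed the threshold (DESeq2 adjusted p = 0.0507).

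Itgb1, the beta chain shared by most matrix-binding integrins, stood highest among the receptors. It had 22651 and 23362 normalised counts in Ctrl, 24687 and 24909 with Oxali, and 23943 and 24342 with Cispl. The rise passed with Oxali (log2 fold change 0.11 ± 0.03, DESeq2 adjusted p = 0.00449) but not with Cispl (0.07 ± 0.03, DESeq2 adjusted p = 0.0817), and the Oxali call was lost without Ctrl replicate 1, Oxali replicate 1 or Oxali replicate 2 (DESeq2 adjusted p = 0.0897, 0.141 and 0.209). Itga5, the fibronectin receptor chain, rose by 0.21 ± 0.05 on the log2 scale with Cispl (DESeq2 adjusted p = 8.34e-05) and had 0.02 ± 0.05 with Oxali. Itgb5, another partner of Itgav, rose by 0.15 ± 0.05 with Cispl (DESeq2 adjusted p = 0.0225), a call that was lost without any library except Ctrl replicate 1 (DESeq2 adjusted p = 0.0629 to 0.348). Itga3 and Itgav passed against Ctrl with neither drug, with log2 fold changes of -0.06 and 0.09 for Oxali and -0.03 and -0.06 for Cispl.

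**Figure D3:**
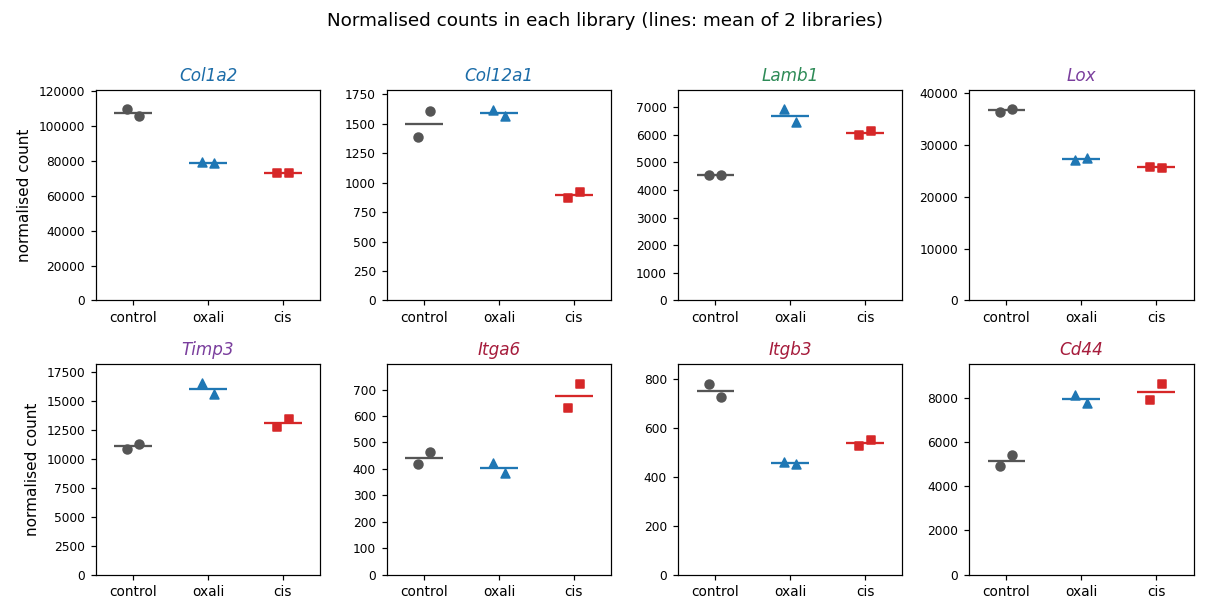
Normalised counts of 8 members in each library (points) with the group mean (lines) for Ctrl, Oxali (oxali) and Cispl (cis), each axis starting at 0. Col1a2 and Lox are lower and Lamb1, Timp3 and Cd44 higher in all treated libraries, Col12a1 is low only in the Cispl libraries (872 and 921), and Itga6 is high only there (631 and 720).

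The next question was whether the 2 platinum compounds differed from each other at the same dose and time, a comparison of 1 pair with p-values adjusted over all tested genes. Of the 41 tested members 19 differed, where 19.9% of all genes did, and 11 of these were higher and 8 lower with Oxali than with Cispl, beside 8.62% and 11.3% of all genes. The count fell when any treated library was left out, as did the count over all genes. With a replicate block 11 members differed. Over all genes 1861 did, beside 2977 without the block. Among genes with a mean of at least 1000 normalised counts 38.9% differed, compared with 16 of 35 members. By direction, 724 of these 4959 genes were higher and 1205 lower with Oxali than with Cispl, beside 11 and 5 of the 35 members. The differences were small, with a median absolute log2 value of 0.09 over the members, 0.13 over genes whose mean reached 1000 normalised counts, and 0.19 over all genes. By role, 4 collagens were higher and 2 lower with Oxali, as were 2 and 1 glycoproteins, 2 and 2 remodelling genes, and 1 and 3 receptors, and 2 laminins were higher.

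The widest differences were in Col12a1 and Itga6. Col12a1 was 1.77 times as high with Oxali as with Cispl (log2 fold change 0.82 ± 0.10, 95% interval 0.64 to 1.01, DESeq2 adjusted p = 4.71e-16). Itga6 with Oxali was at 0.597 of its level with Cispl (-0.74 ± 0.14, interval -1.01 to -0.48, DESeq2 adjusted p = 8.79e-07). Col6a3, Postn, Timp3 and Col5a2 were higher with Oxali, by log2 fold changes of 0.48 ± 0.05, 0.37 ± 0.03, 0.29 ± 0.05 and 0.27 ± 0.03 (DESeq2 adjusted p at most 3.03e-09). Mmp2 was lower with Oxali (-0.44 ± 0.11, DESeq2 adjusted p = 0.000485), as were Col18a1 (-0.34 ± 0.10, DESeq2 adjusted p = 0.00423), Itgb5 (-0.24 ± 0.05, DESeq2 adjusted p = 8.55e-05) and Itga5 (-0.19 ± 0.05, DESeq2 adjusted p = 0.000782). Without Oxali replicate 2 or Cispl replicate 2 the calls of Mmp2 (DESeq2 adjusted p = 0.0732 and 0.0652) and Itga5 (0.15 and 0.0828) were lost, and that of Col18a1 was lost without any of the 4 treated libraries (0.0616 to 0.215). The other called members, Col1a2, Fn1, Lamb1, Lamc1, Lox and Itgav above and Col6a2, Thbs2 and Timp2 below, differed by log2 values of at most 0.19 in size, and each lost its call without any of at least 3 of the 4 treated libraries (DESeq2 adjusted p = 0.0561 to 0.501).

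For members with similar changes in both drugs the intervals bound how far the compounds could differ. The log2 difference between Oxali and Cispl had 95% intervals of -0.10 to 0.11 for Timp1, -0.08 to 0.07 for Mmp14, -0.18 to 0.06 for Cd44 and -0.01 to 0.16 for Col1a1. For Itgb3 the interval was -0.47 to 0, with a difference of -0.24 ± 0.12 (DESeq2 adjusted p = 0.138), a wider range for a gene with fewer counts. The Itgb3 difference passed with edgeR (adjusted p = 0.0232). That of Col1a1 passed with total count scaling and with only the 4 libraries compared (DESeq2 adjusted p = 0.0491 and 0.0302). Col4a2, Thbs1, Loxl1 and Itgb1 passed against Ctrl with only 1 of the drugs, and their difference between the drugs did not pass (DESeq2 adjusted p = 0.579, 0.101, 0.0643 and 0.418). That of Loxl1 passed under 6 alternatives, among them edgeR (adjusted p = 0.035) and omission of Ctrl replicate 1 or 2 (DESeq2 adjusted p = 0.0334 and 0.033), and that of Thbs1 under 4, among them omission of Oxali replicate 1 or Cispl replicate 1 (DESeq2 adjusted p = 0.000676 and 0.00238).

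**Figure D4:**
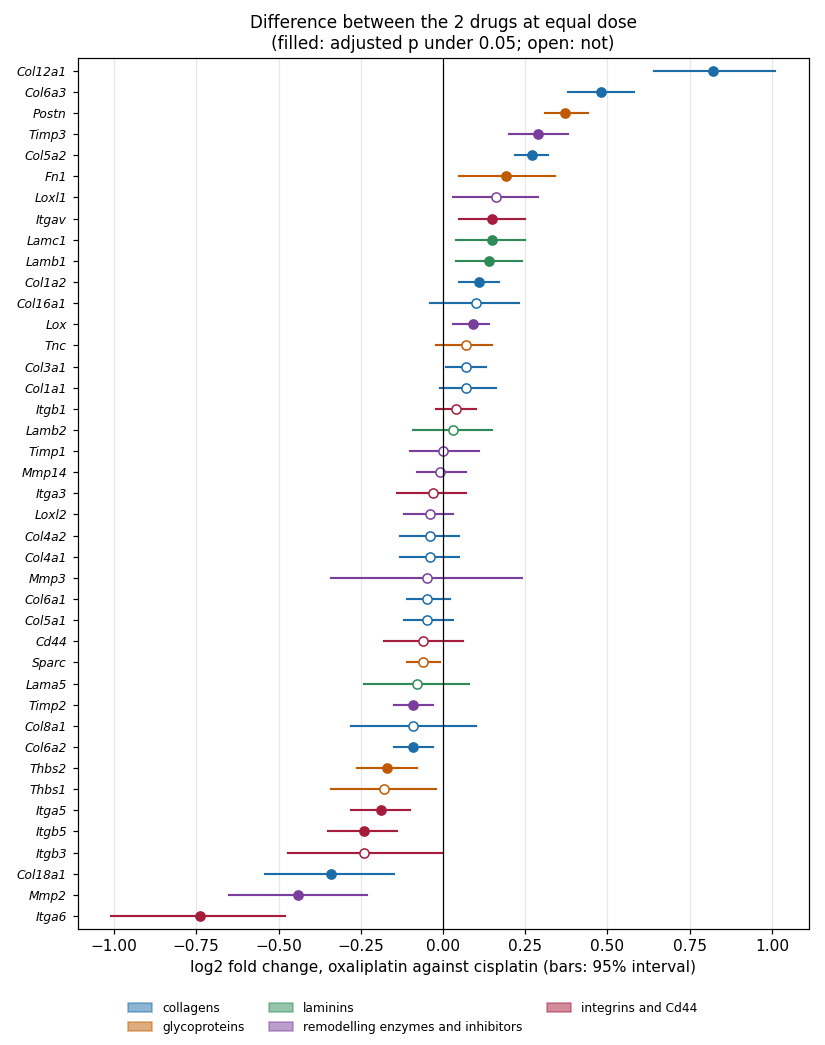
Log2 fold change of Oxali against Cispl for the 41 tested members, ordered by size and colored by role, with 95% intervals and filled points for an adjusted p under 0.05. Col12a1 (0.82) and Itga6 (-0.74) lie at the ends, and 22 open points did not pass the test.

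The members were also read against the length of the gene body. Across 4959 genes with a mean of at least 1000 normalised counts, Pearson's r between the log10 gene span and the log2 fold change was -0.214 with Cispl and -0.00783 with Oxali. Across the 41 members it was -0.0255 with Cispl and 0.0223 with Oxali. These correlations are across genes of the same libraries, which are not independent replicates, and are given as a description. Among the 14 collagens, r was 0.689 with Oxali and 0.384 with Cispl.

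Genes around these members were read from lists written for the pathway. Their counts are to be read against 20.2% of all tested genes called with Oxali and 28.1% with Cispl, or 39.9% and 49.3% of genes with a mean of at least 1000 normalised counts. By direction, 10.7% of all tested genes were higher and 9.5% lower with Oxali, and 15.7% and 12.4% with Cispl. Of 16 other collagens tested, 3 fell with Oxali, and 4 fell and 1 rose with Cispl. These shares were near those of all genes called in either direction, while the share that fell was above that of all genes lower. Col4a5, another type IV chain, fell with both drugs (log2 fold change -0.35 and -0.26), in contrast to Col4a1. The fibrillar collagen gene Col27a1 had 449 and 466 normalised counts in Ctrl, 506 and 493 with Oxali, and 265 and 254 with Cispl, and fell only with Cispl (log2 fold change -0.82 ± 0.14, DESeq2 adjusted p = 6.68e-08). Col7a1, the anchoring fibril chain, rose with Cispl (0.66 ± 0.18, DESeq2 adjusted p = 0.00119). Of 51 other glycoproteins and proteoglycans 10 rose and 8 fell with Oxali, and 11 rose and 9 fell with Cispl. Has1, a hyaluronan synthase whose product is the ligand of CD44, rose from 122 and 151 normalised counts in Ctrl to 267 and 291 with Oxali and 301 and 297 with Cispl (log2 fold change 1.03 ± 0.19 and 1.13 ± 0.19, DESeq2 adjusted p = 1.5e-06 and 7e-08). The fibrillin gene Fbn2 fell with both (-0.67 and -0.62), and the glypican gene Gpc6 fell with Cispl (-1.66 ± 0.21, DESeq2 adjusted p = 1.27e-13) and had -0.38 ± 0.20 with Oxali (DESeq2 adjusted p = 0.159).

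Of 30 genes for folding and processing of collagen, 15 fell and 6 rose with Oxali, and 9 fell and 3 rose with Cispl. Fkbp14, a prolyl isomerase of the endoplasmic reticulum, fell from 939 and 1017 normalised counts in Ctrl to 524 and 495 with Oxali and 630 and 582 with Cispl (log2 fold change -0.94 ± 0.11 and -0.69 ± 0.11, DESeq2 adjusted p = 2.8e-15 and 8.8e-09). Pcolce2, which enhances procollagen cleavage, rose with both (0.67 and 0.85). Of 34 other proteases and inhibitors 6 rose and 6 fell with Oxali, and 12 rose and 4 fell with Cispl. Plau, the urokinase plasminogen activator, rose from 681 and 690 normalised counts in Ctrl to 1220 and 1261 with Oxali and 1234 and 1277 with Cispl (0.86 ± 0.09 and 0.87 ± 0.09, DESeq2 adjusted p = 4.22e-20 and 5.07e-21). Adamts12 fell with both (-0.59 and -1.0), and Mmp28 fell with Oxali (-0.70 ± 0.27, DESeq2 adjusted p = 0.0401).

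Of 13 other integrin chains 2 fell with Oxali, and 1 rose and 3 fell with Cispl. The collagen receptor chain Itga11 fell with both (log2 fold change -0.62 ± 0.13 and -1.06 ± 0.14), and Itga1 fell with Cispl (-1.10 ± 0.24, DESeq2 adjusted p = 3.68e-05). Of 30 adhesion adaptors, which link integrins to actin, 9 rose and 3 fell with Oxali, and 6 rose and 8 fell with Cispl. Bcar1, a docking protein, rose by log2 fold changes of 0.36 and 0.40. Tns2, a tensin, fell (-0.31 and -0.21), and Tln2, a talin, fell with Cispl (-0.79 ± 0.09, DESeq2 adjusted p = 4.26e-17) and had -0.15 ± 0.09 with Oxali (DESeq2 adjusted p = 0.193). Of 18 genes of TGF-beta signalling, a known inducer of collagen genes, 4 rose and 2 fell with Oxali, and 4 rose and 4 fell with Cispl. Smad7, its feedback inhibitor, rose with Cispl (0.92 ± 0.14, DESeq2 adjusted p = 5.05e-10) and had 0.34 ± 0.14 with Oxali (DESeq2 adjusted p = 0.0552). Inhba, an activin subunit, rose by 0.42 and 0.37, and Ltbp4, which binds latent TGF-beta, fell (-0.42 and -0.47). Between the drugs themselves, Col27a1, Gpc6, Tln2, Smad7 and Col7a1 differed (DESeq2 adjusted p = 2.96e-10, 4.17e-08, 5e-11, 0.000197 and 0.0251), and Itga1 and Mmp28 did not pass (DESeq2 adjusted p = 0.0736 and 0.0762).

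Some markers of mesenchymal cells also differed between groups, and their part in the matrix results was not tested. Marker counts are to be read against 20.2% of all tested genes called with Oxali and 28.1% with Cispl. Among genes with a mean of at least 1000 normalised counts these shares were 39.9% and 49.3%. Of 10 mesenchymal markers 3 rose and 1 fell with Oxali, and 3 rose and 2 fell with Cispl. Acta2, the smooth muscle actin gene, had 12102 and 11478 normalised counts in Ctrl, 15081 and 15161 with Oxali, and 11122 and 11399 with Cispl, a rise that passed the test with Oxali (DESeq2 adjusted p = 8.73e-18). With Cispl, Vim, the vimentin gene, rose (log2 fold change 0.28 ± 0.04, DESeq2 adjusted p = 4.72e-09), as did the transcription factor genes Zeb2 (0.56 ± 0.10, DESeq2 adjusted p = 3.08e-07) and Snai2 (0.37 ± 0.09, DESeq2 adjusted p = 0.000318), while Pdgfrb fell (-0.47 ± 0.06, DESeq2 adjusted p = 4.15e-12). Of the 6 epithelial markers that could be tested, 1 rose and 1 fell with Oxali, and 2 rose and 1 fell with Cispl, with Cdh1, the gene of E-cadherin, at 0.53 ± 0.14 on the log2 scale with Cispl (DESeq2 adjusted p = 0.000862). The summed length-scaled level of the immune list was 3.07 to 4.85 and that of the endothelial list 0.362 to 1.01, beside 12569 to 15195 for the 42 members.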

How the data were processed

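The authors deposited RSEM expected counts for each gene, with no scaling between libraries. The submitters' processing notes name STAR 2.5.3a, RSEM 1.3.0 and GRCm38.p6, while the methods of the study name a different counter for RNA-seq of cultured cells. Whether counting used strand is not given in the sources used here. Expected counts are shared among genes with common reads, so overlapping genes are uncertain. All columns were mapped to a sample by the sample labels.

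Symbols, positions and merged exon lengths came from GENCODE M21 (GRCm38), where 54409 of 54446 identifiers matched. Counts were rounded, genes reaching 10 counts in 2 or more libraries were kept (14956), and a single DESeq2 1.42.0 model (R 4.3.3) by group was fitted to the 6 libraries together, as the methods of the study name DESeq2 with the threshold given here. Wald tests were two-sided, with Benjamini-Hochberg adjustment over all genes, a threshold of 0.05 and independent filtering at 0.1. Normalised counts are counts divided by median-of-ratios size factors (0.964 to 1.08). Intervals are 95% Wald intervals. The procedure was tested on simulated data. Alternatives included edgeR 4.0.16, other scalings and filters, a replicate block and omission of each library.

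The members and gene lists were chosen with earlier results of these data known, and no list was tested as a set. Values in every library are given for members called with a log2 change of at least 0.5 in any comparison and for the highest member of each role, with further members given short values. Each other list contributes its most raised and most lowered called gene per drug, if its mean normalised count reached 100, except for an item that is not reported here. The further values in every library for Col6a3, Fn1, Postn, Thbs1, Timp1 and Mmp2, and for Acta2 and mt-Co3, were chosen after their values were seen.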

Additional observations from a re-analysis of the deposited data

How the results depend on the processing

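The counts of called members held within 1.5 times under edgeR, other scalings and filters, the fit of only the 4 libraries compared, and, for each drug against Ctrl, the replicate block and every omission of a library (16 to 20 members for Oxali, 24 to 27 for Cispl). edgeR's quasi-likelihood test called 26, 30 and 19 members for Oxali against Ctrl, Cispl against Ctrl and Oxali against Cispl. Over all genes it called 4618, 6112 and 4773, beside 3028, 4203 and 2977 in DESeq2. A minimum absolute log2 fold change of 0.5, a stricter rule by construction, left 4, 5 and 2 members, and 655, 1181 and 612 of all genes. Oxali against Cispl depended most on the libraries, with 8 to 22 members called when each library was left out. The count was 10 without Oxali replicate 1, 9 without Oxali replicate 2, 10 without Cispl replicate 1 and 8 without Cispl replicate 2, where a group of 1 library is assumed to vary like the others. Total count scaling moved the split of called members for Oxali against Cispl from 11 higher and 8 lower to 14 and 6, and that of all genes for Cispl against Ctrl from 2355 and 1848 to 1824 and 2376. Leaving aside the minimum fold change, the other 14 alternatives together ended the call of 6, 8 and 12 members in the 3 comparisons, and 5, 2 and 5 further members were called under at least 1 of them.

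The replicate numbers shared between groups did not pair the libraries. Deviations of same-numbered libraries correlated at 0.0715, -0.0477 and -0.191 for Ctrl with Oxali, Ctrl with Cispl and Oxali with Cispl over 10731 genes. With a replicate block 18 and 27 members were called for Oxali and Cispl against Ctrl, and 11 for Oxali against Cispl. Over all genes 1958, 2833 and 1861 were called with the block, beside 3028, 4203 and 2977 without it.

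Directions reversed only for log2 values near 0 that were not called. For Mmp14, Oxali against Cispl gave -0.0057, and 0.000875 with edgeR, 0.000885 with TMM scaling and 0.0284 with total count scaling. With each library left out in turn, the log2 values of Oxali against Ctrl ranged from -0.0151 to 0.197 for Col12a1, -0.00112 to 0.0701 for Col6a3, -0.116 to 0.0322 for Col8a1, -0.0221 to 0.067 for Itga5, -0.0478 to 0.0846 for Lama5, -0.029 to 0.0992 for Lamc1 and -0.171 to 0.00202 for Loxl1. Those of Cispl against Ctrl ranged from -0.0661 to 0.00721 for Itga3. Those of Oxali against Cispl ranged from -0.12 to 0.00467 for Cd44, -0.0859 to 0.00886 for Col4a1, -0.0709 to 0.00139 for Itga3, -0.0291 to 0.0789 for Lamb2, -0.0134 to 0.00121 for Mmp14 and -0.00258 to 0.011 for Timp1. At these depths Itga2 was the member too low to be tested.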
